A study of Homo sapiens with 19 samples.

Results

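The genes described here are 10 that growth factor signalling through the kinase ERK switches on and most of which act back on it. They are the MAP kinase phosphatases DUSP4, DUSP5 and DUSP6, the adaptors SPRY2, SPRY4, SPRED1 and SPRED2, the transcription factors ETV4 and ETV5, and PHLDA1. They were picked by symbol from pathway knowledge, with earlier results of these data already known, so that counts of them are not an unbiased sample of the tested genes. All 10 were present among the 34825 genes of each of 2 RNA-seq tables. Both tables come from HepG2, an established human liver cancer line that carries a mutant NRAS. In the first experiment, cells received 50 nM of a non-targeting control siRNA (NTG) or 1 of 2 siRNAs against INO80 (siINO80#1 and siINO80#2), with 3 libraries per group. In the second, cells were kept in DMSO or in 1 μM EPZ-6438, an inhibitor of the histone H3 lysine 27 methyltransferase EZH2, starting 3 days before transfection, and then received 50 nM of NTG or of a single siRNA against MCRS1 (siMCRS1). That experiment held 2 libraries of DMSO NTG, 3 of DMSO siMCRS1, 3 of EPZ-6438 NTG and 2 of EPZ-6438 siMCRS1. All cells were harvested 72 h after transfection. INO80 is the ATPase of the INO80 chromatin remodelling complex, and MCRS1 is one of its subunits.

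In the RAS to ERK cascade, a ligand binds a receptor tyrosine kinase, adaptors such as SHC1 and GRB2 bring the exchange factors SOS1 and SOS2 to RAS, and RAS passes the signal through RAF kinases and the MEK kinases (MAP2K1, MAP2K2) to ERK. Active ERK induces early genes and, with them, its own brakes. The dual-specificity phosphatases DUSP4 and DUSP5 act on MAP kinases in the nucleus and DUSP6 on ERK in the cytoplasm, Sprouty and SPRED proteins dampen signalling upstream of or at RAS and RAF, and the repressor CIC keeps ETV4 and ETV5 silent until ERK relieves it. The transcripts of these genes are widely read as an output of the pathway, whose activity itself was not measured here.

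The 10 genes lie on 9 chromosomes (GRCh38.p14). DUSP6 (chr12:89347235-89352501) and PHLDA1 (chr12:76025447-76031776) share chromosome 12. DUSP5 was at chr10:110497907-110511533, SPRY2 at chr13:80335976-80341126, SPRY4 at chr5:142310430-142325021, SPRED1 at chr15:38252836-38357249, SPRED2 at chr2:65307175-65432599, ETV4 at chr17:43527846-43546340 and ETV5 at chr3:186046314-186109089. ETV4 overlaps DHX8 on the opposite strand and ETV5 overlaps DGKG on its own strand. DHX8 and DGKG are genes of both tables. SPRED2 overlaps a lncRNA on its own strand, and ETV5, PHLDA1, DUSP6 and SPRY4 each overlap one on the opposite strand, none of which is in the tables by name. These overlaps are of whole gene spans, and shared exons were not looked for. Reads were quantified with kallisto per the labels, with no strand setting given. Whether the overlaps affect the values of these 6 genes was not tested.

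RefSeq promoter windows (GRCh38.p14) of 6 of the 10 genes were used, with 9 windows in all, and DUSP4 was left out of them. The 4 shown are the 250 bases directly upstream of the gene's outermost annotated start, for 4 members that passed a test below. They are written 5′ to 3′ on the gene's strand, with capitals marking a CCAAT box or a GC box (GGGCGG) on either strand.
DUSP6, chr12:89352502-89352751, minus strand: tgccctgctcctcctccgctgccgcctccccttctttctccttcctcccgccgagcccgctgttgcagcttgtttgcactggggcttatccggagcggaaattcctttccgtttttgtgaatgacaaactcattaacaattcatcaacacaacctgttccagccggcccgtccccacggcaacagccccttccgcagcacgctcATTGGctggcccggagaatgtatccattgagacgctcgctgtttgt
PHLDA1, chr12:76031777-76032026, minus strand: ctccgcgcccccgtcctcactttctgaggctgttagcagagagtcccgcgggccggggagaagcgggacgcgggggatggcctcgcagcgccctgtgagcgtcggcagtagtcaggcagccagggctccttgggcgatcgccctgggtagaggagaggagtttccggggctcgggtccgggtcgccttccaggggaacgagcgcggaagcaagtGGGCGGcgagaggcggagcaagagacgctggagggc
SPRY2, chr13:80341127-80341376, minus strand: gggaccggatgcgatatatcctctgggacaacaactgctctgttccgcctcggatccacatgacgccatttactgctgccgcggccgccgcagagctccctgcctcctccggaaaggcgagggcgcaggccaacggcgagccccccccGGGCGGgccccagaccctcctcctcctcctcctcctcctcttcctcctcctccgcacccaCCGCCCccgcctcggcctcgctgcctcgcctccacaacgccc
SPRED1, chr15:38252586-38252835, plus strand: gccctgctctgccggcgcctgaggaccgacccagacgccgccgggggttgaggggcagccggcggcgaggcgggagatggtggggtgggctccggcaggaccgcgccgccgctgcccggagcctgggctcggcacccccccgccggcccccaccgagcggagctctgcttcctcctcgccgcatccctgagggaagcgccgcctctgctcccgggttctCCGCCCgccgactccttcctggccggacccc

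The inverted CCAAT box of DUSP6 lay 46 bases before its start. PHLDA1 carried a GC box 36 bases before its start, SPRY2 a pair at 102 and 42 bases, and SPRED1 an inverted one at 31 bases. Over the 9 windows, a CCAAT box was found in 2 and a GC box in 4, against 32% and 42.6% of the 35114 promoter windows of the table. Both strands were also searched for an ETS site (CCGGAAG), an AP-1 site (TGANTCA), a cAMP response element (TGACGTCA) and 2 forms of the CIC octamer (TGAATGAA and TCAATGAA). An EGR site (GCGTGGG), an E-box (CACGTG) and a CArG box were searched for as well. In the order named, all these were in 8.52%, 6.57%, 1.65%, 1.4%, 0.635%, 6.19%, 6.35% and 1.16% of all windows. They were in none of the 9, which says only that these letters are not in these 250 bases. Other forms of the CIC octamer were not searched for, so the search cannot show that CIC sites are absent.

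Reads per library, as recovered from the tables, numbered 17093574 to 25369547 for INO80 and 26038505 to 47397233 for EPZ-6438 and siMCRS1. Values below are normalized read counts, whose scale differs between the 2 tables. Over the 10 genes a library held at least 71 reads of each in the first table and 56 in the second. The targeted genes followed the labels. INO80 stood at 1278, 1338 and 1175 in NTG, 576, 639 and 609 with siINO80#1 and 439.8, 456 and 483 with siINO80#2. MCRS1 stood at 1577 and 1283 in DMSO NTG against 140.2, 83.7 and 119 in DMSO siMCRS1, and at 1533, 1355 and 1201 in EPZ-6438 NTG against 126 and 90.5 in EPZ-6438 siMCRS1. Of INO80, MCRS1 and EZH2, 1 fell with siINO80#1 and 2 with siINO80#2 (20.8% and 28.4% of tested genes). With siINO80#2, MCRS1 or EZH2 therefore fell besides INO80. The median log2 fold change of the 3 was -0.07 with siINO80#1 and -0.47 with siINO80#2. Whether that fall has a part in the results was not tested. With siMCRS1, 2 fell in DMSO and in EPZ-6438 (24.6% and 26.9%), INO80 among them. The call of INO80 in DMSO was lost without DMSO siMCRS1 1 or 2 (limma adjusted p 0.0777 and 0.125). It was also lost without DMSO NTG 1 or 3, where its log2 fold change was -0.20 and -0.34. In EPZ-6438 the call of INO80 was lost without EPZ-6438 siMCRS1 B, where it had -0.32. These last fits leave 1 library in a group. All 8 hepatocyte markers were at 1879 or above in every library of both tables. HNF4A, a hepatocyte transcription factor, fell in each of the 4 siRNA comparisons with NTG, with log2 fold changes of -0.45 (SE 0.07) with siINO80#1, -1.02 (SE 0.07) with siINO80#2, -0.55 (SE 0.16) with siMCRS1 in DMSO and -0.55 (SE 0.16) in EPZ-6438. With siINO80#2, ALB, APOA1 and TTR fell too, with -0.57 (SE 0.17), -0.84 (SE 0.19) and -0.59 (SE 0.14), while ALB rose by 0.57 (SE 0.19) with siMCRS1 in EPZ-6438. The calls of HNF4A with siMCRS1 were lost without DMSO NTG 1 or DMSO siMCRS1 3 (adjusted p 0.160 and 0.0553) and without EPZ-6438 NTG 2 or EPZ-6438 siMCRS1 B (0.0524 and 0.149), that of ALB with siINO80#2 without NTG C (0.0652), and that of ALB in EPZ-6438 without EPZ-6438 NTG 2 or 3 or siMCRS1 A or B (0.0642 to 0.152). Of 5 markers of other cell types, PTPRC of leukocytes and VWF and COL1A2 of endothelium and fibroblasts stayed at 35.9 or below, with VWF at 0 in its lowest library, while PECAM1 of endothelium ranged from 138 to 326 and COL1A1 of fibroblasts reached 772. The sum of the 5 ranged from 347 to 357 in NTG, 429 to 470.0 with siINO80#1 and 345 to 447 with siINO80#2. In the second table it ranged from 419 to 492 in DMSO NTG, 600.3 to 963 in DMSO siMCRS1, 222 to 381 in EPZ-6438 NTG and 741 to 893 in EPZ-6438 siMCRS1. Their part in the results was not tested. In bulk RNA, fewer cells of a type and less RNA per cell cannot be told apart. Library siINO80#2 C stood apart from its group, with a mean correlation of 0.975 with the other 2, the lowest of its table, and a chi-square statistic of 84.3 and 121 times its degrees of freedom against them, where the other 7 replicate pairs of that table had 9.45 to 18.7. Nothing in the labels says that libraries came from separate cultures, so p-values measure the spread between libraries only.

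With siINO80#1, 6 of the 10 genes rose and none fell (limma, adjusted p under 0.05), where 20.7% of the 14034 tested genes rose and 20.8% fell. With siINO80#2, 8 rose and none fell, against 26.6% and 28.4% of tested genes. The median log2 fold change of the 10 was 0.72 and 0.66 for the 2 siRNAs, and that of all tested genes was 0.00 for both. All treated libraries lay above all NTG libraries for 8 of the 10 genes with siINO80#1 (27.8% of tested genes) and for 8 with siINO80#2 (30% of tested genes). Without siINO80#2 C, 7 of the 10 passed with siINO80#2, the call of DUSP6 being lost. Both siRNAs were compared with the same 3 NTG libraries, so the 2 counts are not independent.

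**Figure D1:**
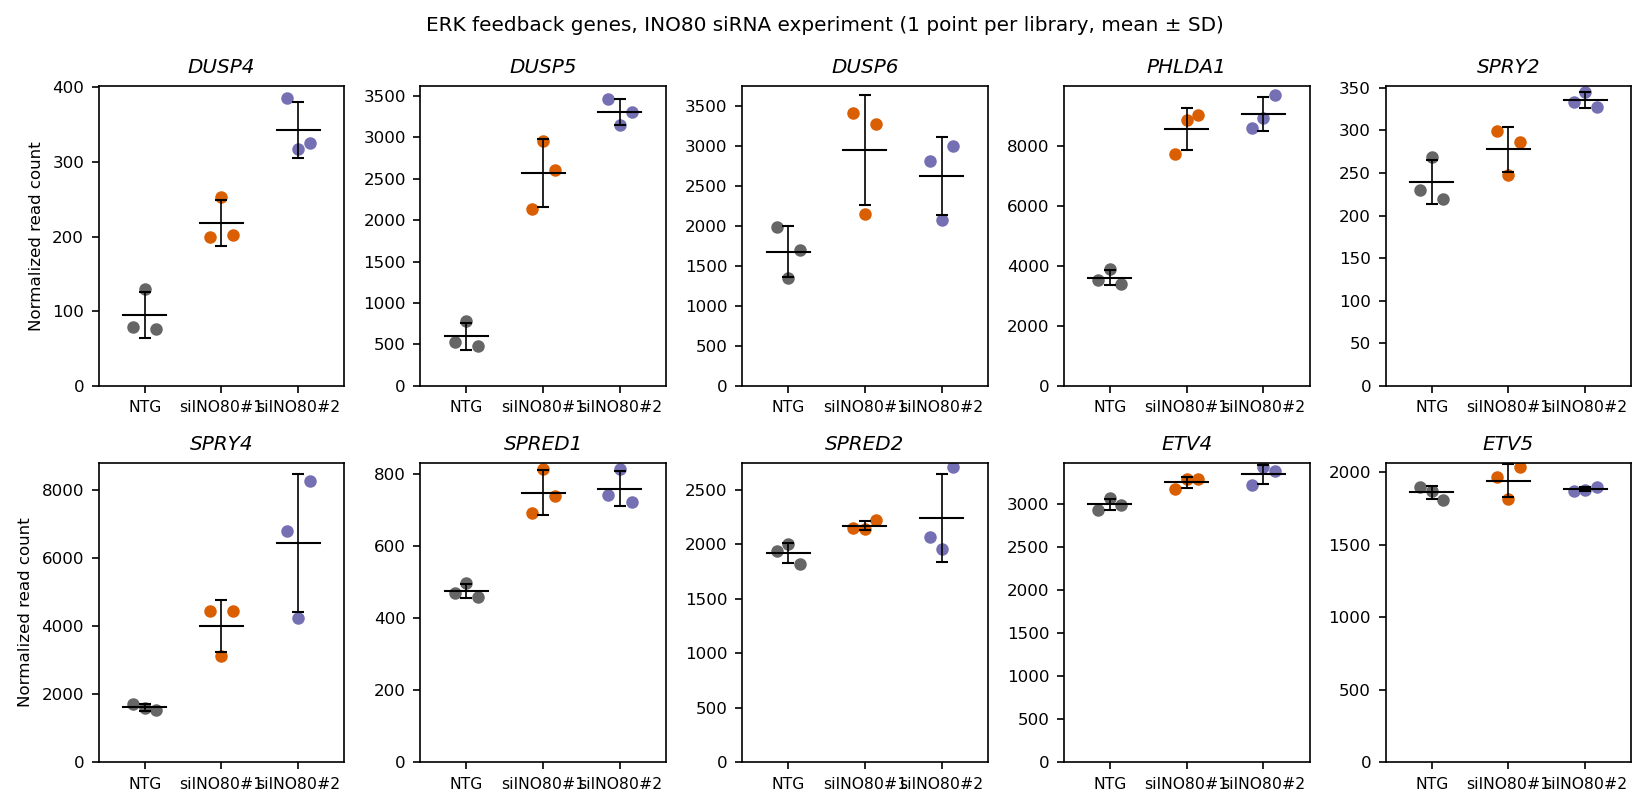
Normalized read count (linear axis from 0) of each of the 10 genes in the INO80 siRNA experiment, with 1 point per library, a line at the group mean and bars of 1 SD (n = 3 per group). DUSP4, DUSP5, SPRY4 and PHLDA1 show the largest log2 fold changes of the 10 over NTG with both siRNAs, while ETV4, ETV5 and SPRED2 stay near their NTG levels.

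Among the phosphatases, DUSP5, a nuclear phosphatase selective for ERK, had the largest log2 fold change of the 10 with either siRNA. It stood at 528, 779 and 484 in NTG libraries A to C, 2141, 2955 and 2609 with siINO80#1 and 3469, 3153 and 3310.3 with siINO80#2. The lowest treated library, siINO80#1 A, was well above the highest NTG library, B. The log2 fold change was 2.12 (SE 0.17, limma adjusted p = 6.22e-06) with siINO80#1 and 2.50 (SE 0.17, limma adjusted p = 1.03e-06) with siINO80#2, which are 4.36-fold and 5.66-fold and lie at percentiles 99.6 and 99.6 of all tested genes.

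DUSP4, which also acts on JNK and p38 kinases, stood at 79.2, 130.4 and 75.8 in NTG, 199, 254 and 203 with siINO80#1 and 386, 318 and 325 with siINO80#2. The 3 groups did not overlap one another. Against NTG the log2 fold change was 1.23 (SE 0.20, limma adjusted p = 0.000651) and 1.88 (SE 0.20, limma adjusted p = 1.99e-05). DUSP4 was also the 1 member that differed between the 2 siRNAs, being higher with siINO80#2 by 0.65 (SE 0.20, limma adjusted p = 0.0388), where 22.1% of tested genes differed in either direction. That difference lost its call when any of 4 single libraries was left out (siINO80#1 A or C, siINO80#2 A or C), without which its adjusted p was 0.121, 0.113, 0.120 and 0.0568. It was also lost with equal totals (0.62, adjusted p = 0.0677) and without a trend (adjusted p = 0.0648).

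DUSP6, a cytoplasmic ERK phosphatase and one of the most used readouts of the pathway, stood at 1984, 1349 and 1703 in NTG, 3413, 2155 and 3271 with siINO80#1 and 2811, 2072 and 2995 with siINO80#2. Library B was the lowest of its group all 3 times, and the treated B libraries stood only just above the highest NTG library, A. The log2 fold change was 0.80 (SE 0.20, limma adjusted p = 0.00835) and 0.65 (SE 0.20, limma adjusted p = 0.0181). With siINO80#2 the call was lost without NTG B (0.50, adjusted p = 0.0758), siINO80#2 A (0.59, adjusted p = 0.0571) or siINO80#2 C (0.54, adjusted p = 0.0582).

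SPRY4, a Sprouty protein that limits RAS activation below receptor kinases, stood at 1728, 1603 and 1527 in NTG, 4448, 3125 and 4449 with siINO80#1 and 6802, 4250.4 and 8262 with siINO80#2. The B library was again the lowest of each treated group, and all treated libraries were above all NTG libraries. SPRY4 rose by 1.29 (SE 0.21, limma adjusted p = 0.000753) and 1.94 (SE 0.21, limma adjusted p = 2.65e-05) on the log2 scale. Between the siRNAs the difference was 0.65 (SE 0.21, limma adjusted p = 0.0517), past the threshold with the replicate letter as a block (adjusted p = 0.0177), with equal totals (0.0445), with quantile normalization (0.0388), over genes with a mean of at least 50 (0.0456), by edgeR (0.0379) and by DESeq2 (0.00361). It passed without siINO80#2 B as well (0.92, adjusted p = 0.0027).

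SPRY2, a second Sprouty, stood at 229.8, 269 and 219.8 in NTG, 299, 248 and 286 with siINO80#1 and 333, 345 and 327 with siINO80#2. The siINO80#1 libraries overlapped NTG, since siINO80#1 B lay below NTG B, while the siINO80#2 libraries did not. Its log2 fold change was 0.21 (SE 0.11, limma adjusted p = 0.146) with siINO80#1, with a 95% interval of -0.03 to 0.46, and 0.49 (SE 0.11, limma adjusted p = 0.0032) with siINO80#2.

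The SPRED proteins bind neurofibromin and bring it to RAS. SPRED1 stood at 471, 499 and 459.9 in NTG, 693, 815 and 741 with siINO80#1 and 742, 815 and 723 with siINO80#2. Treated and control libraries did not overlap, and the 2 siRNAs gave nearly the same size, 0.65 (SE 0.09, limma adjusted p = 0.000174) and 0.67 (SE 0.09, limma adjusted p = 7.26e-05). SPRED2 stood at 1938, 2002 and 1819 in NTG, 2149.7, 2142 and 2219 with siINO80#1 and 2069, 1957 and 2704 with siINO80#2. The siINO80#1 libraries lay just above NTG, while of the siINO80#2 libraries B lay within the NTG range and C far above it. The change was 0.18 (SE 0.11, limma adjusted p = 0.214) and 0.21 (SE 0.11, limma adjusted p = 0.12), neither past the threshold, and without siINO80#2 C the second was 0.07.

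ETV4 and ETV5, ETS factors of the PEA3 group, had the smallest log2 fold changes of the 10 with either INO80 siRNA. ETV4 stood at 2934, 3069 and 2991 in NTG, 3179, 3289 and 3293 with siINO80#1 and 3226, 3435 and 3386 with siINO80#2. Although no treated library fell into the NTG range, the log2 fold change was only 0.12 (SE 0.06, limma adjusted p = 0.135) and 0.16 (SE 0.06, limma adjusted p = 0.0397). The second passed, but it was lost without NTG A, B or C or without siINO80#2 B (adjusted p 0.0595 to 0.118), and the log2 fold change was 0.05 when libraries were scaled to equal totals. ETV5 stood at 1903, 1871 and 1812 in NTG, 1972, 1818 and 2039 with siINO80#1 and 1870.1, 1882 and 1898 with siINO80#2. Its groups overlapped, and its 95% intervals of -0.08 to 0.20 and -0.12 to 0.16 bound the change that could have gone unseen.

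PHLDA1, a pleckstrin homology-like protein that ERK signalling induces, stood at 3546, 3882 and 3395 in NTG, 7744, 8849.8 and 9042 with siINO80#1 and 8587, 8935 and 9678 with siINO80#2. The lowest treated library, siINO80#1 A, was far above the highest NTG library, and the 2 treated groups overlapped each other. The log2 fold change was 1.24 (SE 0.09, limma adjusted p = 2.84e-06) and 1.33 (SE 0.09, limma adjusted p = 8.26e-07), with the smallest adjusted p-values of the 10 in both comparisons, and the 2 siRNAs differed by 0.09 (SE 0.09), which did not pass.

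With siMCRS1, 9 of the 10 genes rose and none fell in DMSO, where 23.1% of the 14312 tested genes rose and 24.6% fell. In EPZ-6438 the same 9 genes rose and none fell, against 26.8% and 26.9% of tested genes. ETV4 was the exception in both. The median log2 fold change of the 10 was 1.01 in DMSO and 1.19 in EPZ-6438, beside 0.00 and 0.01 over all tested genes. All siMCRS1 libraries lay above all NTG libraries for the 9 genes in DMSO (33.3% of tested genes) and in EPZ-6438 (34.3%). The siMCRS1 libraries had larger normalized totals, 37296662 to 40177962 against 31332572 to 33672033 with NTG. Scaling all libraries to equal totals moved the median of all genes to -0.23 in either comparison and left 7 of the 9 calls. SPRED2 then had 0.29 in both treatments and ETV5 0.14 in DMSO and 0.16 in EPZ-6438, none past the threshold. With quantile normalization SPRED2 had 0.32 and 0.29 and ETV5 0.19 and 0.19, again not past it.

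**Figure D2:**
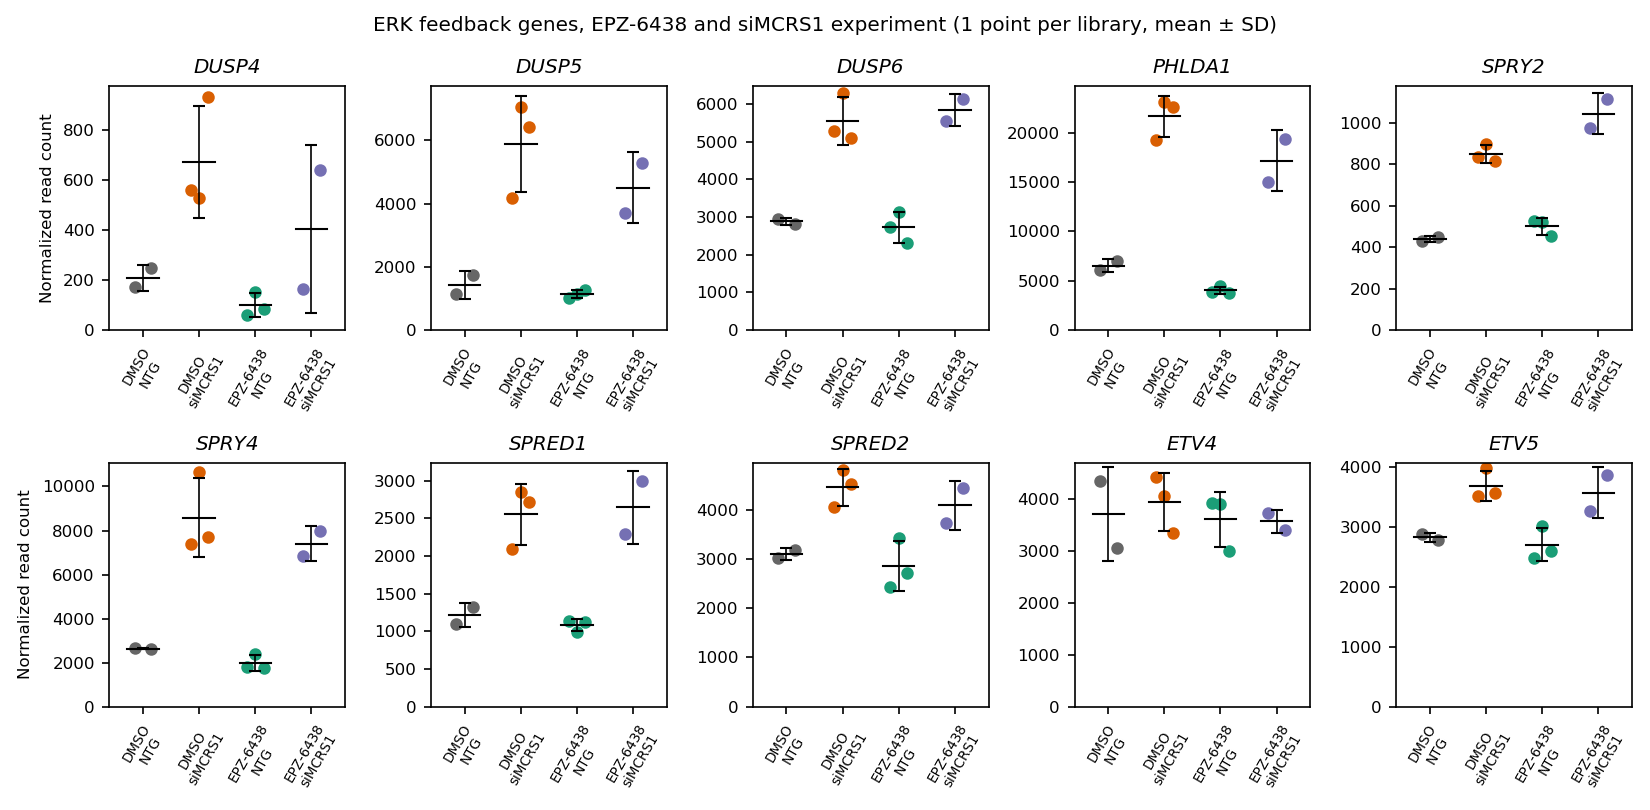
Normalized read count (linear axis from 0) of each of the 10 genes in the EPZ-6438 and siMCRS1 experiment, with 1 point per library, a line at the group mean and bars of 1 SD (n = 2, 3, 3 and 2 from left to right). For every gene but ETV4 the siMCRS1 libraries stand above the NTG libraries of the same treatment, and the spread of DUSP4 with EPZ-6438 siMCRS1 is wide.

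DUSP5 stood at 1129 and 1756 in DMSO NTG against 4181, 7051 and 6437 in DMSO siMCRS1, and at 1026, 1139 and 1272 in EPZ-6438 NTG against 3716 and 5294 in EPZ-6438 siMCRS1. The lowest siMCRS1 library was still above the highest NTG library of the whole table. Its log2 fold change was 2.03 (SE 0.25, limma adjusted p = 0.000122) in DMSO and 1.96 (SE 0.25, limma adjusted p = 9.55e-05) in EPZ-6438, at percentiles 99.0 and 98.6 of all tested genes.

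DUSP4 stood at 172 and 246 in DMSO NTG against 559, 525 and 929.6 in DMSO siMCRS1, and at 60.3, 154 and 85.2 in EPZ-6438 NTG against 166 and 640.0 in EPZ-6438 siMCRS1. It had the widest spread of the 10, and EPZ-6438 siMCRS1 A lay just above the highest EPZ-6438 NTG library. The log2 fold change was 1.65 (SE 0.52, limma adjusted p = 0.0233) and 1.80 (SE 0.52, limma adjusted p = 0.0134). In DMSO the call was lost without DMSO NTG 1 (adjusted p = 0.145), DMSO NTG 3 (0.0514) or DMSO siMCRS1 3 (0.0730), and in EPZ-6438 without siMCRS1 B, where the log2 fold change was 0.83 (adjusted p = 0.197) with 1 library left, taken to vary like the others.

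DUSP6 stood at 2949 and 2820.1 in DMSO NTG against 5286, 6281 and 5104 in DMSO siMCRS1, and at 2729, 3146 and 2319 in EPZ-6438 NTG against 5549 and 6139 in EPZ-6438 siMCRS1. No siMCRS1 library overlapped an NTG library. DUSP6 rose by 0.94 (SE 0.14, limma adjusted p = 0.000313) and 1.11 (SE 0.14, limma adjusted p = 8.28e-05) on the log2 scale, that is 1.92-fold and 2.15-fold.

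SPRY4 stood at 2664 and 2610.1 in DMSO NTG against 7395, 10639.7 and 7712 in DMSO siMCRS1, and at 1804, 2397 and 1772 in EPZ-6438 NTG against 6831 and 7973 in EPZ-6438 siMCRS1. The change was 1.68 (SE 0.17, limma adjusted p = 5.03e-05) and 1.90 (SE 0.17, limma adjusted p = 1.58e-05) on the log2 scale. SPRY2 stood at 429.9 and 449 in DMSO NTG against 835, 899 and 814 in DMSO siMCRS1, and at 527, 520.0 and 453 in EPZ-6438 NTG against 973 and 1112 in EPZ-6438 siMCRS1. Both Sprouty genes were therefore separated by siRNA in both treatments, and SPRY2 rose by 0.95 (SE 0.12, limma adjusted p = 0.000146) and 1.06 (SE 0.12, limma adjusted p = 4.97e-05).

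SPRED1 stood at 1100.1 and 1327 in DMSO NTG against 2097, 2850.5 and 2711 in DMSO siMCRS1, and at 1139, 997 and 1128 in EPZ-6438 NTG against 2299 and 2992 in EPZ-6438 siMCRS1, with log2 fold changes of 1.07 (SE 0.16, limma adjusted p = 0.000397) and 1.27 (SE 0.16, limma adjusted p = 9.67e-05). SPRED2 stood at 3010.1 and 3175 in DMSO NTG against 4047, 4794 and 4513 in DMSO siMCRS1, and at 2429, 3413 and 2705 in EPZ-6438 NTG against 3736 and 4432 in EPZ-6438 siMCRS1. Its groups were separate within each treatment but close, with log2 fold changes of 0.52 (SE 0.14, limma adjusted p = 0.0119) and 0.53 (SE 0.14, limma adjusted p = 0.00969). The call was lost without DMSO NTG 1 (adjusted p = 0.0782) and without EPZ-6438 siMCRS1 B (adjusted p = 0.109).

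ETV4 stood at 4354 and 3068 in DMSO NTG against 4430.3, 4068 and 3342 in DMSO siMCRS1, and at 3937, 3906 and 3001 in EPZ-6438 NTG against 3737 and 3418 in EPZ-6438 siMCRS1. The groups overlapped throughout, and the log2 fold change was 0.10 (SE 0.18) and -0.01 (SE 0.18), with 95% intervals of -0.29 to 0.49 and -0.39 to 0.38. ETV5 stood at 2881 and 2772 in DMSO NTG against 3516, 3972 and 3557 in DMSO siMCRS1, and at 2484, 3019 and 2603 in EPZ-6438 NTG against 3269.6 and 3869 in EPZ-6438 siMCRS1. Unlike ETV4 its groups did not overlap within a treatment, but the change was small, 0.38 (SE 0.12, limma adjusted p = 0.0193) and 0.40 (SE 0.12, limma adjusted p = 0.0129), and the call was lost without DMSO NTG 1 (adjusted p = 0.0683), DMSO NTG 3 (0.0978), DMSO siMCRS1 2 (0.0711) or EPZ-6438 siMCRS1 B (0.155).

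PHLDA1 stood at 6088 and 7008 in DMSO NTG against 19289, 23089 and 22587 in DMSO siMCRS1, and at 3871, 4437 and 3801 in EPZ-6438 NTG against 14993 and 19337 in EPZ-6438 siMCRS1. The siMCRS1 libraries all exceeded the highest NTG library of the table. Its log2 fold change was 1.72 (SE 0.14, limma adjusted p = 1.46e-05) in DMSO and 2.08 (SE 0.14, limma adjusted p = 3.99e-06) in EPZ-6438, the smallest adjusted p-values of the 10 in both.

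**Figure D3:**
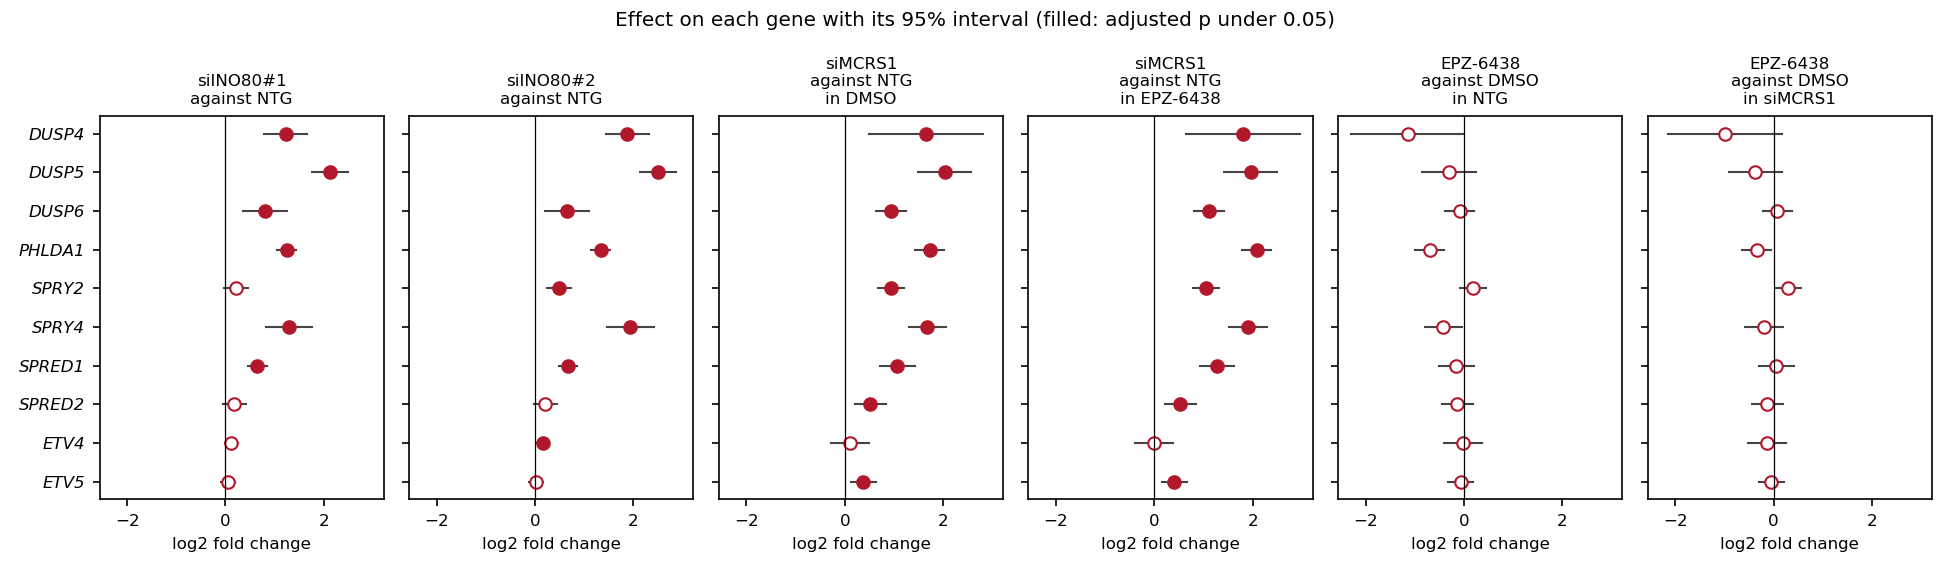
Log2 fold change of each gene (points) with its 95% interval (lines) in the 4 siRNA comparisons with NTG and the 2 comparisons of EPZ-6438 with DMSO, all from limma, with filled points at an adjusted p under 0.05. The numbers of filled points are 6, 8, 9, 9, 0 and 0 from left to right, and all filled points lie to the right of 0.

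Set side by side, 6 genes (DUSP4, DUSP5, DUSP6, SPRY4, SPRED1 and PHLDA1) rose with both INO80 siRNAs and with siMCRS1 in both treatments. For DUSP4, DUSP5, SPRY4 and PHLDA1 the log2 fold change was above 1 in all 4 comparisons. SPRY2 had 0.21 and 0.49 with the INO80 siRNAs against 0.95 and 1.06 with siMCRS1, SPRED2 had 0.18 and 0.21 against 0.52 and 0.53, and ETV5 had 0.06 and 0.02 against 0.38 and 0.40, the siMCRS1 values of these last 2 genes being smaller under the other scalings above. The 2 experiments were scaled apart and share no library, and no test was made between them.

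None of the 10 genes passed the threshold for EPZ-6438 against DMSO, a pair of comparisons that use the same libraries as those of siMCRS1. In NTG cells 0 of 10 passed where 0.384% of the tested genes did (55 genes, and 2 to 20 without single libraries), 1 of the 10 had a log2 fold change above 0 and 9 below, and 3 of the 10 (PHLDA1, DUSP4 and SPRY4) lay below DMSO in every library, as did 17.1% of tested genes. PHLDA1 had -0.70 (SE 0.14, limma adjusted p = 0.0625) with an unadjusted p of 0.000332, and it passed with DESeq2 on the recovered reads (-0.69, adjusted p = 0.000516) but not with edgeR (-0.68, adjusted p = 0.0592). DUSP4 had -1.15 (SE 0.52, limma adjusted p = 0.295) and SPRY4 had -0.42 (SE 0.17, limma adjusted p = 0.25). SPRY2 was the member above DMSO, at 0.18 (SE 0.12).

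In siMCRS1 cells 0 of 10 passed where 0.0908% of tested genes did (13 genes, and 0 to 26 without single libraries). Log2 fold changes ran from -0.99 for DUSP4 to 0.29 for SPRY2, and PHLDA1 stood at -0.34 (SE 0.14, limma adjusted p = 0.461) with an unadjusted p of 0.0283. The effect of siMCRS1 in EPZ-6438 minus that in DMSO passed for 0 of the 10 and for 0% of the 14312 tested genes, 336 of which had an unadjusted p under 0.05. By edgeR that count was 0 and by DESeq2 it was 5, with no member among them. The difference ran from -0.11 for ETV4 to 0.36 for PHLDA1, whose 95% interval was -0.07 to 0.78. Standard errors ran from 0.16 for ETV5 to 0.74 for DUSP4, whose interval of -1.48 to 1.79 is the widest of the 10.

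For the other genes of the pathway, values are log2 fold changes over NTG, first with siINO80#1 and siINO80#2 and then with siMCRS1, in DMSO before EPZ-6438. In that order, 20.7%, 26.6%, 23.1% and 26.8% of all tested genes rose and 20.8%, 28.4%, 24.6% and 26.9% fell. The first 2 comparisons share their NTG libraries.

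Of the listed relatives of the 10 genes, 6 of 11 tested rose and none fell with siINO80#1 (20.7% and 20.8% of all tested genes), 8 rose and 2 fell with siINO80#2 (26.6% and 28.4%), and of 12 tested 7 rose and 2 fell with siMCRS1 in DMSO (23.1% and 24.6%) and 7 rose and 3 fell in EPZ-6438 (26.8% and 26.9%). Of the 7 that rose in EPZ-6438, 5 kept their call without EPZ-6438 NTG 1 or 3. Calls among them were also lost without EPZ-6438 siMCRS1 A or B, and among those that rose in DMSO without DMSO NTG 1 or 3. The phosphatase gene DUSP10, whose product acts on JNK and p38, rose each time, with 1.00 (SE 0.17), 1.80 (SE 0.17), 2.20 (SE 0.25) and 2.42 (SE 0.25). DUSP8 rose each time as well, with 0.97 (SE 0.21), 0.78 (SE 0.21), 1.96 (SE 0.17) and 1.97 (SE 0.17), and so did SPRY1, with 1.03 (SE 0.12), 0.98 (SE 0.12), 0.74 (SE 0.17) and 0.98 (SE 0.17). DUSP1, an early-response phosphatase of several MAP kinases, had 0.20 (SE 0.17) with siINO80#1, which did not pass, and rose in the other 3 comparisons, with 0.58 (SE 0.17), 1.78 (SE 0.18) and 2.12 (SE 0.18).

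SPRED3, the third SPRED, rose from 39.3 to 164 with siINO80#1 and to 356 with siINO80#2, log2 fold changes of 2.04 (SE 0.23, limma adjusted p = 6.34e-05) and 3.08 (SE 0.23, limma adjusted p = 2.11e-06). With siMCRS1 it had 0.28 (SE 0.27, limma adjusted p = 0.409) in DMSO and 0.12 (SE 0.27, limma adjusted p = 0.739) in EPZ-6438. DUSP9, a cytoplasmic ERK phosphatase, had -0.26 (SE 0.19), -1.58 (SE 0.19), -0.41 (SE 0.20) and -0.58 (SE 0.20), of which the second and the fourth passed. With siINO80#2 its mean went from 5441 to 1859.9, while the call in EPZ-6438 was lost without EPZ-6438 NTG 1, 2 or 3 or EPZ-6438 siMCRS1 B (adjusted p 0.0740, 0.0571, 0.0574 and 0.307). ETV1, the third PEA3 factor, was tested in the second table only. It fell with siMCRS1 in DMSO, with -1.40 (SE 0.48), a call lost without any 1 of the 5 libraries. Without a DMSO siMCRS1 library its limma adjusted p was 0.0510 to 0.0685, and without DMSO NTG 1 or 3 it had -1.61 and -1.20. In EPZ-6438 it fell from a mean of 26.2 to 3.02, a level near that of 3 reads, with -2.84 (SE 0.48).

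Of the ligands, 2 of 5 tested rose and 1 fell with siINO80#1 (20.7% and 20.8% of all tested genes), 2 rose and 2 fell with siINO80#2 (26.6% and 28.4%), and of 6 tested 3 rose and 1 fell with siMCRS1 in DMSO (23.1% and 24.6%) and in EPZ-6438 (26.8% and 26.9%). HBEGF and AREG, EGF-receptor ligands, rose in all 4 comparisons, HBEGF with 0.80 (SE 0.15), 1.45 (SE 0.15), 2.07 (SE 0.18) and 1.86 (SE 0.18) and AREG with 0.95 (SE 0.21), 1.54 (SE 0.21), 0.90 (SE 0.28) and 1.79 (SE 0.28). TGFA, a ligand of the same receptor, fell in all 4, with -0.30 (SE 0.08), -0.33 (SE 0.08), -0.71 (SE 0.16) and -0.61 (SE 0.16). NRG1 fell with siINO80#2 from a mean of only 23.5, with -0.87 (SE 0.27), and had -0.01 (SE 0.27), 0.52 (SE 0.37) and 0.36 (SE 0.37) in the others. EGF went from 2.39 in DMSO NTG, a level near that of 3 reads, to 17.9 in DMSO siMCRS1, and its 1.40 (SE 0.62) in EPZ-6438 did not pass. EREG rose by 1.33 (SE 0.44) on the log2 scale with siMCRS1 in EPZ-6438 and had 0.10 (SE 0.22), 0.01 (SE 0.22) and 0.94 (SE 0.44) in the others. Leaving out 1 library ended the call of NRG1 (NTG C or siINO80#2 B, adjusted p 0.0630 and 0.0506), of AREG in DMSO (DMSO NTG 1 or DMSO siMCRS1 2, 0.220 and 0.0825), of EGF (DMSO NTG 1, 0.0775), of EREG (EPZ-6438 NTG 2, siMCRS1 A or siMCRS1 B, 0.0810, 0.0656 and 0.120) and of TGFA in EPZ-6438 (siMCRS1 A, 0.0698).

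Of the 11 receptor genes, 5 rose and 2 fell with siINO80#1 (20.7% and 20.8% of all tested genes), 3 rose and 5 fell with siINO80#2 (26.6% and 28.4%), 4 rose and 4 fell with siMCRS1 in DMSO (23.1% and 24.6%), and 4 rose and 5 fell in EPZ-6438 (26.8% and 26.9%). EGFR rose in all 4 comparisons, with 0.91 (SE 0.14), 1.30 (SE 0.14), 1.02 (SE 0.21) and 0.98 (SE 0.21). FGFR2 fell in all 4, with -1.62 (SE 0.51), -2.05 (SE 0.51), -2.60 (SE 0.39) and -1.91 (SE 0.39), from NTG means of 36.8 to 109. The call with siINO80#1 was lost without NTG A, NTG C or siINO80#1 B (adjusted p 0.104, 0.0808 and 0.0973). KLB, the co-receptor of hepatic FGF signalling, also fell in all 4, with -0.69 (SE 0.10), -1.65 (SE 0.10), -0.66 (SE 0.15) and -0.51 (SE 0.15), the last of them lost without EPZ-6438 siMCRS1 B (adjusted p = 0.142). Its main partner FGFR4 had -0.17 (SE 0.10) with siINO80#1, which did not pass, and fell in the other 3, with -0.79 (SE 0.10), -1.34 (SE 0.17) and -1.82 (SE 0.17). ERBB3 likewise had -0.08 (SE 0.08) with siINO80#1, not past the threshold, and fell in the other 3, with -0.75 (SE 0.08), -1.40 (SE 0.26) and -1.77 (SE 0.26). Without EPZ-6438 siMCRS1 B, 3 of the 5 receptor genes that fell in EPZ-6438 kept their call.

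Of the 19 genes of the cascade from adaptors to ERK, 10 rose and 2 fell with siINO80#1 (20.7% and 20.8% of all tested genes), 10 rose and 4 fell with siINO80#2 (26.6% and 28.4%), 10 rose and 1 fell with siMCRS1 in DMSO (23.1% and 24.6%), and 10 rose and 2 fell in EPZ-6438 (26.8% and 26.9%). With siINO80#1, 7 of the 10 rising genes kept their call without NTG A. With siINO80#2, 7 of the 10 kept it without NTG A, NTG B or siINO80#2 A. The number of rising genes rests on single libraries with siMCRS1 as well. In DMSO 6 of the 10 kept their call without DMSO NTG 1, DMSO siMCRS1 2 or DMSO siMCRS1 3, and in EPZ-6438 5 of the 10 kept it without EPZ-6438 siMCRS1 B. Of the 2 that fell with siINO80#1, GAB1 lost its call without any 1 of the 6 libraries (adjusted p 0.0614 to 0.127), a gene named after its value was seen.

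SHC1, the adaptor, rose in each comparison, with 1.32 (SE 0.07), 1.36 (SE 0.07), 1.30 (SE 0.13) and 1.29 (SE 0.13), and so did the scaffold gene SHOC2, with 0.75 (SE 0.09), 0.75 (SE 0.09), 0.93 (SE 0.14) and 1.10 (SE 0.14). MAPK3, which encodes ERK1, rose with the INO80 siRNAs by 1.16 (SE 0.12, limma adjusted p = 4.05e-05) and 1.19 (SE 0.12, limma adjusted p = 1.58e-05) on the log2 scale, and with siMCRS1 it had -0.06 (SE 0.23, limma adjusted p = 0.862) and -0.49 (SE 0.23, limma adjusted p = 0.0965). MAP2K1, which encodes MEK1, rose in all 4, with 0.32 (SE 0.11), 0.36 (SE 0.11), 1.04 (SE 0.11) and 1.20 (SE 0.11). Its calls with the INO80 siRNAs were lost without NTG A or B, siINO80#1 B or C, or siINO80#2 A or B (adjusted p 0.0578 to 0.134). NRAS rose in all 4 comparisons, with 0.22 (SE 0.06), 0.47 (SE 0.06), 0.39 (SE 0.11) and 0.58 (SE 0.11). Its call was lost with siINO80#1 without NTG A, NTG C or siINO80#1 B (adjusted p 0.0668, 0.0577 and 0.0603) and with siMCRS1 in DMSO without DMSO NTG 1 or 3 (adjusted p 0.0717 and 0.0523). Read counts per gene do not tell the mutant from the normal NRAS transcript.

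Among the nuclear effectors and CIC, 4 of 7 tested rose and 1 fell with siINO80#1 (20.7% and 20.8% of all tested genes), 3 rose and 2 fell with siINO80#2 (26.6% and 28.4%), 3 rose and 2 fell with siMCRS1 in DMSO (23.1% and 24.6%), and 4 rose and 2 fell in EPZ-6438 (26.8% and 26.9%). Without NTG C, 1 of the 3 that rose with siINO80#2 kept its call, and without EPZ-6438 siMCRS1 B 2 of the 4 in EPZ-6438 did. ELK3, a ternary complex factor, rose each time, with 0.73 (SE 0.15), 1.43 (SE 0.15), 1.05 (SE 0.16) and 1.39 (SE 0.16). RPS6KA1, which encodes the ERK-activated kinase RSK1, fell each time, with -0.52 (SE 0.08), -0.57 (SE 0.08), -1.99 (SE 0.21) and -2.09 (SE 0.21). CIC, the repressor of ETV4 and ETV5, rose with siINO80#1 by 0.50 (SE 0.09, limma adjusted p = 0.00165) on the log2 scale and had 0.14 (SE 0.09, limma adjusted p = 0.229) with siINO80#2, -0.07 (SE 0.20, limma adjusted p = 0.801) with siMCRS1 in DMSO and -0.49 (SE 0.20, limma adjusted p = 0.0614) in EPZ-6438.

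Of 9 other ERK-induced genes tested, 8 rose in each of the 4 comparisons, where 20.7%, 26.6%, 23.1% and 26.8% of all tested genes rose. CCND1, a cyclin gene named after its values were seen, was among the 8 with either INO80 siRNA, fell with siMCRS1 in DMSO and had -0.18 (SE 0.10) in EPZ-6438, which did not pass. Its log2 fold changes in the first 3 were 0.27 (SE 0.09), 0.25 (SE 0.09) and -0.29 (SE 0.10). Each of these 3 calls was lost without several single libraries, the first without NTG A or C or siINO80#1 A, B or C (adjusted p 0.0589 to 0.131), the second without NTG A or C or siINO80#2 A or B (0.0634 to 0.150) and the third without DMSO NTG 1 or 3 or DMSO siMCRS1 1 or 3 (0.0817 to 0.194).

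IER3, an early-response gene, rose in all 4, with 0.62 (SE 0.23), 1.05 (SE 0.23), 1.89 (SE 0.26) and 2.08 (SE 0.26), but the first call was lost without NTG B or C or siINO80#1 A or C (adjusted p 0.0930 to 0.183) and by edgeR and DESeq2. EGR1, an immediate early transcription factor, rose each time, with 1.61 (SE 0.23), 2.17 (SE 0.23), 3.08 (SE 0.38) and 3.24 (SE 0.38). FOS, another, rose by 3.04 (SE 0.43, limma adjusted p = 0.00026) and 3.09 (SE 0.43, limma adjusted p = 0.000167) with siMCRS1, and had 0.46 (SE 0.38, limma adjusted p = 0.362) and 0.79 (SE 0.38, limma adjusted p = 0.1) with the INO80 siRNAs. FOSL1, a FOS relative, rose in all 4, with 1.28 (SE 0.19), 1.50 (SE 0.19), 1.17 (SE 0.15) and 1.37 (SE 0.15), and so did PLAUR, the urokinase receptor, with 1.75 (SE 0.20), 2.16 (SE 0.20), 1.65 (SE 0.16) and 1.51 (SE 0.16). By limma, no gene of any of these lists passed for EPZ-6438 against DMSO in NTG or siMCRS1 cells, or for the difference of the siMCRS1 effects. For EPZ-6438 the median log2 fold change of the 6 tested ligands was 1.03 in NTG cells and 0.94 in siMCRS1 cells. The medians of the other lists ran from -0.39 to 0.17 in NTG cells and from -0.24 to 0.03 in siMCRS1 cells.

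**Figure D4:**
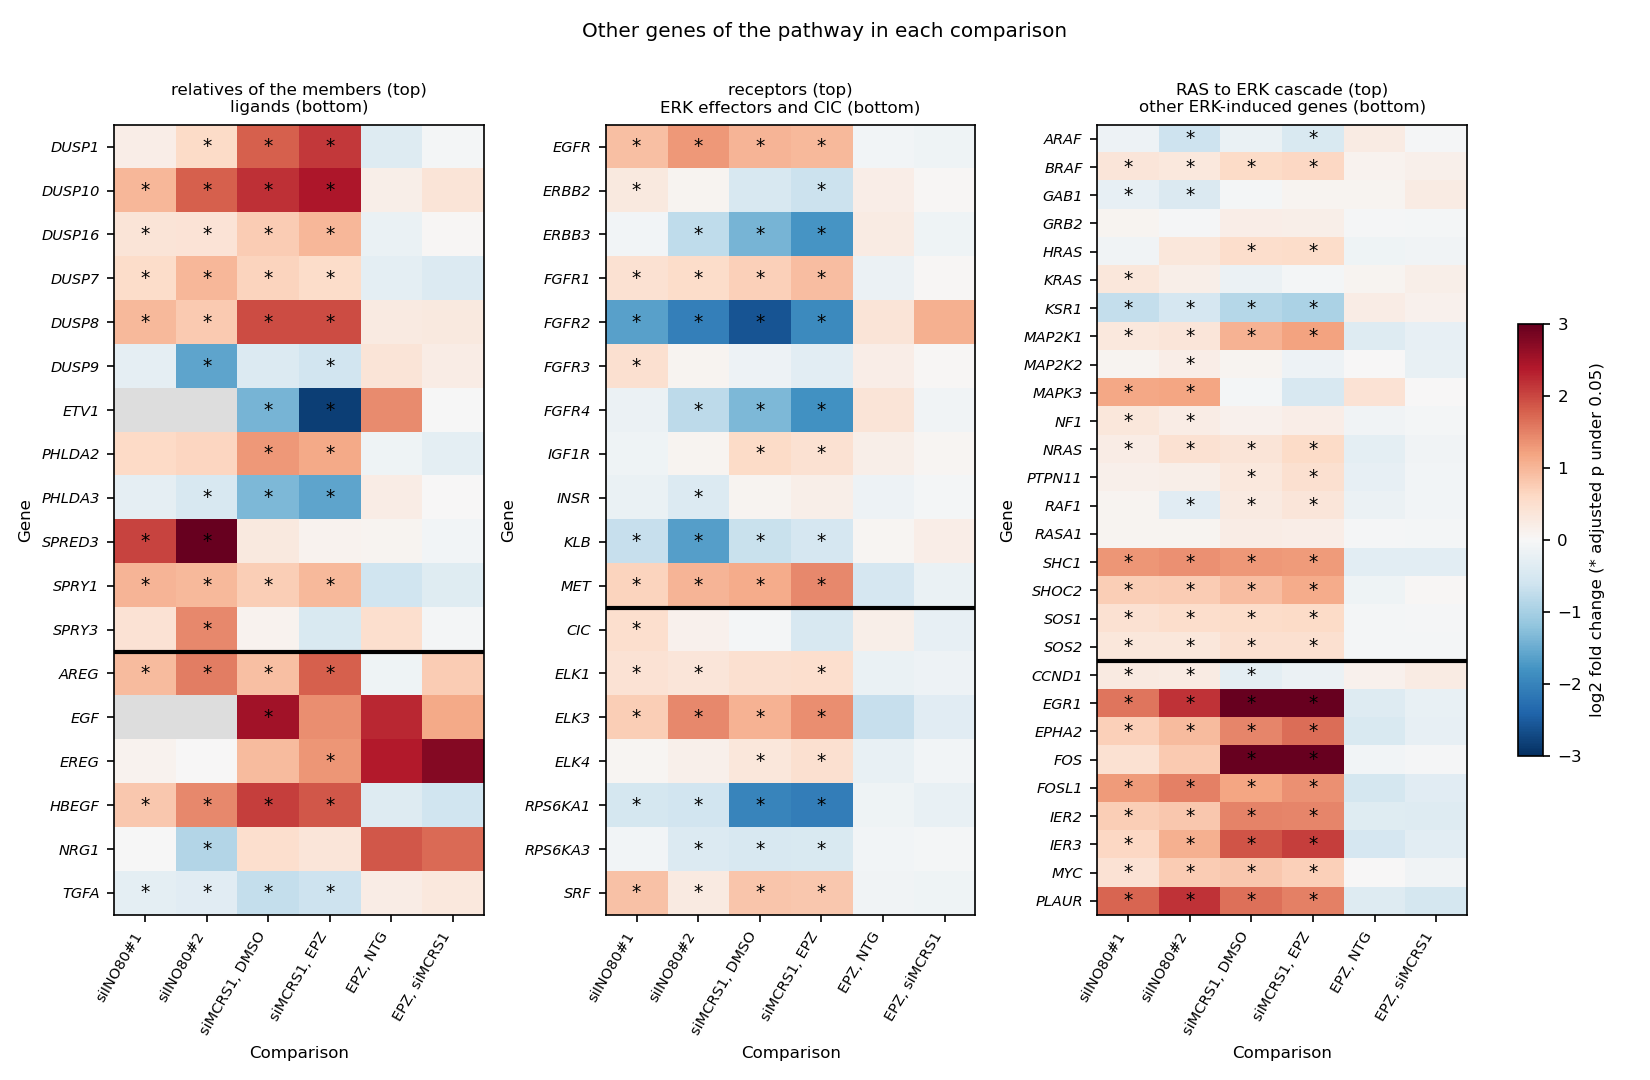
Log2 fold change (colour, from -3 in blue to 3 in red, with larger values at the end colour) of the tested genes of 6 pathway lists in 6 comparisons, with a star at a limma adjusted p under 0.05 and grey where a gene was not tested. The 4 siRNA columns carry stars in both directions among receptors and mostly in red among other ERK-induced genes, and the 2 EPZ-6438 columns carry none.

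Across libraries, all 45 pairs of the 10 genes had a Pearson correlation of log2 levels above 0 in each experiment, with a median of 0.75 over the 9 libraries of the INO80 experiment and 0.91 over the 10 of the EPZ-6438 and siMCRS1 experiment. In 13 pairs it was above 0.8 in both. ETV4 correlated with DUSP5 at 0.93 in the first and at 0.02 in the second. These values are over libraries that share treatments and include the differences between groups.

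Ranked by the smaller of the 2 correlations over the other 13533 genes tested in both, the 3 genes most like SPRY4 were HBEGF (0.99 and 0.99), IQGAP1 and KLF6. Those most like DUSP5 were ARG2 (0.99 and 0.99), KPNA1 and SGTB, those most like PHLDA1 were LRRC8A (0.99 and 0.99), TBC1D8 and NPTN, and those most like SPRED1 included ABHD13 (0.99 and 0.99) and MTPN. For DUSP4 they were METRNL (0.98 and 0.97), GALNT10 and CHRNA9, and for DUSP6 they included RSBN1 (0.95 and 0.96) and C8orf4. For SPRED2 they included CAST (0.95 and 0.95) and SRRM1, and for SPRY2 ZBTB20 (0.95 and 0.93), LINC01296 and JAK1. The closest genes were less alike for ETV4, where BAP1 led at 0.85 and 0.83 followed by NDRG3 and SPPL3, and for ETV5, where HEATR6 led at 0.81 and 0.88 followed by RANBP3 and MTUS1. No other member was among the 3 closest to any of the 10.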

How the data were processed

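RNA of HepG2 cells was sequenced from stranded mRNA libraries in 2 experiments of 9 and 10 libraries. Per the labels, the authors quantified reads with kallisto on GRCh38 and normalized them with DESeq2 (versions and the strand setting are not given in the sources used here), and deposited normalized signal values, that is gene counts divided by a size factor. Within 0.01, 100% of the values were whole multiples of 1 step per library, which gave whole reads. Columns were assigned by their names, and 0 were left unused. The 17 pairs of replicates all differed beyond sampling noise (a chi-square statistic 9.45 to 121 times its degrees of freedom).

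Each table was fitted alone, all groups together, with limma 3.58.1 (R 4.3.3) on log2(value + 1) with a mean-variance trend, over genes with a mean of at least 10, Benjamini-Hochberg adjusted at 0.05. All fold changes are on that scale, which understates low genes. Alternatives were edgeR 4.0.16 and DESeq2 1.42.0 on recovered reads, other pseudocounts (0.1 and 5), filters and scalings, and leaving out each library. The fits were tested on simulated data.

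All 10 members are named. Of each pathway list, up to 3 called genes with the largest absolute log2 fold change per comparison are named, plus NRAS and CIC, and values of a named gene are repeated in other comparisons. The members and lists were chosen with earlier results of these data known. Of the pathway lists, genes under the filter were not tested. Some genes of the pathway lists and of those most like a member are not reported here. Promoter sequences and positions are from RefSeq (GRCh38.p14), and overlaps from GENCODE. Figures were drawn with matplotlib. Intervals and counts of reads cover counting error or library spread only.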

Additional observations from a re-analysis of the deposited data

How the results depend on the processing

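The 33 called effects of single members kept their direction in all 525 refits and their call in 490, and the 35 losses concern DUSP4, DUSP6, SPRED2, ETV4 and ETV5 in the comparisons given beside them. Equal totals and quantile normalization each left 7 of 9 members for siMCRS1 in either treatment. The count of 6 members for siINO80#1 was 6 in every refit but that of only the groups compared, where it was 7, and leaving out single libraries gave 6 to 8 for siINO80#2 and 6 to 9 for siMCRS1 in either treatment. For siINO80#2 against siINO80#1, 2 members passed by DESeq2, by edgeR, with a mean of at least 50, with quantile normalization and with the replicate block (DUSP4 with SPRY4), 1 passed with equal totals, SPRY4 in place of DUSP4, 0 passed without a trend, and leaving out single libraries gave 0 to 2. For EPZ-6438 in NTG cells DESeq2 called 1 member, PHLDA1. Over all genes, that comparison gave 55 calls, but 721 by DESeq2, 85 with quantile normalization, 20 without a filter, 19 without a trend and 2 to 20 without single libraries, and EPZ-6438 in siMCRS1 cells gave 13, but 149 by DESeq2, 4 without a filter, 7 without a trend, 0 with only the groups compared and 0 to 26 without single libraries. Between the siRNAs, 3096 genes passed, and 1948 to 3476 without single libraries.

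Signs turned only for effects that had not passed. Equal totals gave -0.13 for ETV4 with siMCRS1 in DMSO, -0.021 and -0.092 for ETV5 with siINO80#1 and siINO80#2, and -0.0070 for SPRED1 between the siRNAs. Quantile normalization gave 0.060 for ETV4 and 0.0031 for ETV5 with EPZ-6438 in NTG cells, 0.0046 for ETV5 with EPZ-6438 in siMCRS1 cells, -0.10 for ETV4 with siMCRS1 in DMSO, and -0.023 for SPRED2 in the difference of the siMCRS1 effects, where DESeq2 gave -0.011 and edgeR -0.019. Other sign changes came with single libraries left out, whose values span 0. For the difference of the siMCRS1 effects they ran from -0.82 to 1.13 (DUSP4), from -0.39 to 0.25 (DUSP5), from -0.36 to 0.15 (ETV4), from -0.099 to 0.14 (ETV5) and from -0.12 to 0.14 (SPRED2). For EPZ-6438 in NTG cells they ran from -0.62 to 0.016 (DUSP5), from -0.20 to 0.023 (DUSP6) and from -0.28 to 0.23 (ETV4). For siINO80#2 against siINO80#1 they ran from -0.37 to 0.0072 (DUSP6), from -0.034 to 0.083 (SPRED1) and from -0.11 to 0.12 (SPRED2). For siMCRS1 against NTG in DMSO they ran from -0.15 to 0.35 (ETV4). For siMCRS1 against NTG in EPZ-6438 they ran from -0.13 to 0.062 (ETV4). For EPZ-6438 in siMCRS1 cells they ran from -0.17 to 0.074 (ETV5) and from -0.14 to 0.24 (SPRED1). For siINO80#2 against NTG they ran from -0.0027 to 0.033 (ETV5). The cause was not tested.

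The replicate letters of the INO80 experiment mark no stated batch. Deviations of same-letter libraries correlated above 0.1 in 5 of 9 pairs (mean 0.10, from -0.077 to 0.26), and 8 of 9 libraries correlated best with their own letter. Deviations are from the group mean, so the mean over the 18 other pairs, -0.052, is largely set by that of the same-letter pairs. With the replicate block, the members called were 6 for siINO80#1, 8 for siINO80#2 and 2 between the siRNAs. No paired analysis was made of the EPZ-6438 and siMCRS1 table, since the numbers of most of its columns are in no label.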
